A study of Drosophila melanogaster with 12 samples.

Results

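The genes described here are the mitochondrial ribosomal proteins of Drosophila melanogaster, taken as every row of the deposited count table whose symbol begins with mRpL or mRpS. The rule found 73 of 15340 genes, 47 with mRpL symbols and 26 with mRpS symbols. By the assignment of their mammalian counterparts, 49 belong to the large and 24 to the small subunit, because mRpS30 and mRpS18A, named as small subunit proteins, sit in the large subunit of the mammalian mitochondrial ribosome. A pair of mitoribosomal genes with other symbols, tko and bonsai, falls outside the rule and is given with the related lists.

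RNA was sequenced from type II neuroblasts, a small class of larval brain stem cells that bud off intermediate neural progenitors. Larvae hatched within 2 h of each other were kept at 25 °C and used 24, 36, 50 or 84 h after hatching, with 3 libraries at each age and 12 in all. Each library came from a pool of 93 to 132 GFP-labelled cells sorted from dissociated brains. The sources at hand name neither the driver of the GFP nor the strain. No treatment or mutant is part of the design, so the comparison is between ages, and the title places it in the temporal patterning of these stem cells. Whether same-age libraries go back to different dissections is not stated, and the p-values therefore describe the spread of these libraries, which may be technical.

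Mitochondrial ribosomes translate the few messages encoded in mitochondrial DNA, which give core subunits of the respiratory chain and of ATP synthase. In animals, all of their proteins are encoded in the nucleus, made in the cytosol and imported, and they assemble with ribosomal RNA encoded in the mitochondrion. Many have a bacterial counterpart, while others are found only in mitochondria. In fly neuroblasts, respiration has been tied to proliferation and to the timing of temporal transitions.

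The libraries held 4512102 to 8391731 gene counts, and the 73 genes together took 0.0706 to 0.174% of them. The lowest shares were those of 24 h replicates 1 and 2 (0.073 and 0.0706%), against 0.107% in 24 h replicate 3. The same 2 libraries stood apart in other ways. Spiked ERCC RNA, added in the same amount to every library, made up 0.799 and 0.939% of their counts against 0.12 to 0.599% in the other 10, and their TMM factors, which rescale library size, were 0.80 and 0.84 against 0.86 to 1.25. Results that set 24 h against 36 or 84 h are therefore also given without them. Neuroblast markers (7 genes, dpn, mira and pnt among them) summed to 2255 to 3576 CPM, that is counts scaled to library size, and were each detected in every library. The type I neuroblast and intermediate progenitor markers ase and erm summed to 2.25 to 10.4 CPM. Of the other cell types, 4 neuron markers summed to 167 to 354 CPM, mostly elav, and 5 glia markers to 261 to 372 CPM, mostly nrv2, with the glial factor gene repo at 0 in 6 libraries. The 5 hemocyte and fat body markers summed to 0 to 6.92 CPM and the 3 muscle markers to 0.172 to 6.24 CPM.

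The mitoribosomal genes were expressed at a moderate and rather even level. Between genes, levels are compared in TPM, a measure that corrects for transcript length, as the authors deposited it. The TPM table holds 72 of the 73 genes, all but mRpL47, and 71 of them lay above 0, with a median of their 12-library means of 47.3 TPM and a middle range of 32.1 to 61.4. The median over all genes above 0 was 6.68 TPM, that of cytosolic ribosomal protein genes 1891 TPM and that of 28 nuclear-encoded respiratory chain genes 211 TPM. The subunits were close to each other, at a median of 47.2 TPM for 47 large subunit genes and 48.8 TPM for 24 small subunit genes.

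At the top of that order stood mRpL55, a large subunit protein found only in mitochondria, at 142.8 ± 44.8 TPM (SD over the 12 libraries, here and in the next 3 sentences). It was followed by mRpL35 at 110.3 ± 29.9 TPM, mRpS18A at 110.1 ± 42.0 TPM and mRpL9 at 96.84 ± 43.7 TPM. Of these, mRpL35 and mRpL9 have bacterial counterparts, and mRpS18A is related to bacterial S18. At the bottom were mRpS18C at 17.24 ± 10.7 TPM, mRpS17 at 18.63 ± 7.32 TPM and mRpS23 at 18.66 ± 9.78 TPM, all of the small subunit. Next to each other at either end of the order, genes had overlapping ranges over the 12 libraries, while the ranges of mRpL55 (82.79 to 227.4 TPM) and mRpS18C (0 to 33.53 TPM) did not meet. One gene, mRpL53, of the large subunit, had 0 counts in every library, which allows up to 0.357 to 0.665 CPM by library (3 counts, counting error only). It overlaps AGO1 and CG33155 in the current annotation, as 43 of the 73 genes overlap some other gene. Among the 43 are mRpS18C and mRpS23 at the bottom and mRpL35 and mRpL9 at the top, but not mRpS17, mRpL55 or mRpS18A. The sources at hand do not say whether reads in overlaps were counted or dropped.

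**Figure D1:**
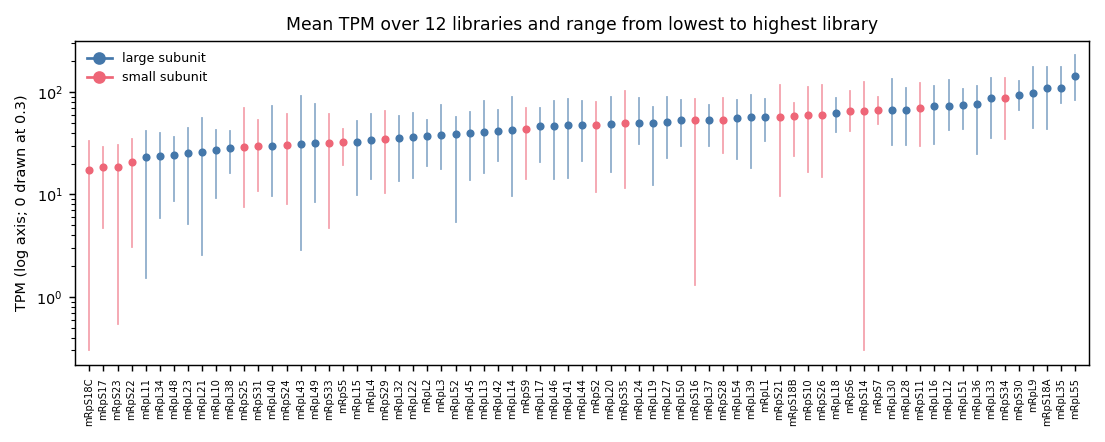
Mean TPM of 71 mitoribosomal genes on a log axis, ordered from lowest to highest, with lines from the lowest to the highest of 12 libraries (a library at 0 is drawn at 0.3). Means span 17.24 TPM for mRpS18C to 142.8 TPM for mRpL55, and both subunits are spread over most of the order.

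The 3 proteins related to bacterial S18 differed in level. The gene for mRpS18C, the closest to bacterial S18, had 17.24 ± 10.7 TPM, mRpS18B, a small subunit protein, 57.89 ± 17.1 TPM, and mRpS18A 110.1 ± 42.0 TPM. The ranges of mRpS18C (0 to 33.53 TPM) and mRpS18A (43.41 to 173.8 TPM) did not meet, while mRpS18B reached from 23.68 to 78.28 TPM and overlapped both. Of the 3 genes, only mRpS18C overlaps another gene in the current annotation (CG15536), and any part of this in its level was not tested. None of the 3 passed a test between ages in the main fit, which used all libraries and TMM scaling. From 24 to 84 h, mRpS18A had a log2 fold change (log2FC) of 0.48 ± 0.35 (SE, here and below), mRpS18B of 0.12 ± 0.38 and mRpS18C of 0.66 ± 0.96, with adjusted p of 0.366, 0.866 and 0.683 in edgeR's quasi-likelihood test, Benjamini-Hochberg adjusted over all genes tested. The values without 24 h replicates 1 and 2 were 0.03, 0.23 and 1.72, again not called (adjusted p 0.984, 0.814 and 0.416).

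Summed over the 72 genes with any count, the level was lowest at 24 h. The 24 h libraries held 915.6, 839.6 and 1113 CPM (TMM-adjusted, as all CPM below), the 36 h libraries 1075, 1021 and 1275 CPM, the 50 h libraries 1210, 1182 and 1433 CPM and the 84 h libraries 1190, 1391 and 1398 CPM. The means were 956.0 ± 141, 1124 ± 134, 1275 ± 137 and 1326 ± 118 CPM (SD, n = 3). All 50 and 84 h libraries lay above all 24 h libraries, whereas neighbouring ages overlapped. The 24 h libraries that stood apart were the 2 lowest of the 12, and 24 h replicate 3 reached within the range of the 36 h libraries. In TPM the sums were 2299, 2180 and 3239 at 24 h and 3669, 4761 and 4716 at 84 h, again without overlap. In libraries made from bulk RNA, fewer cells of a type and less RNA per cell cannot be told apart, here or below.

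**Figure D2:**
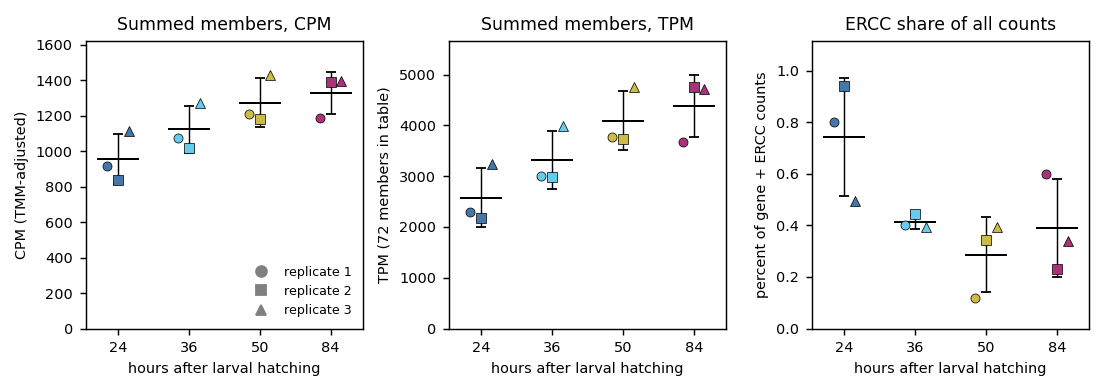
Summed level of the mitoribosomal genes by library in TMM-adjusted CPM (left) and TPM (middle), and ERCC share of all counts in percent (right), against hours after larval hatching. Symbols mark replicates, bars the mean ± SD of 3 libraries; 24 h replicates 1 and 2 have both the lowest sums (915.6 and 839.6 CPM) and the highest ERCC shares (0.799 and 0.939%).

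The sums of both subunits were lowest at 24 h and highest at 84 h. The large subunit genes summed to 681.8 ± 79.1, 781.5 ± 104, 885.1 ± 120 and 923.4 ± 73.7 CPM at 24, 36, 50 and 84 h, and the small subunit genes to 274.2 ± 62.3, 342.3 ± 32.4, 389.8 ± 17.3 and 402.6 ± 44.6 CPM (SD, n = 3). The ratio of small to large was 0.399 ± 0.0454, 0.440 ± 0.0267, 0.444 ± 0.0382 and 0.435 ± 0.0144, differences within the spread of the 24 h libraries. Gene by gene, replicates agreed less at 24 h, where the median coefficient of variation over the 72 genes was 39.6%, than at 36 h (30.0%), 50 h (27.2%) or 84 h (20%). At 24 h it was 53.2% for the small and 34.7% for the large subunit. No such value was taken over all genes, so the spread is not shown to be particular to the mitoribosomal genes. Of all genes tested, 12.1 and 16.9% had their lowest level of the 12 libraries in 24 h replicates 1 and 2. The highest level fell there in 11.8 and 16.7%.

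From 24 to 84 h, 10 of 72 mitoribosomal genes tested rose and 0 fell. That is 13.9% higher, where 8.16% of all 7978 genes tested were called higher and 10.7% lower. At an unadjusted p under 0.05 there were 18 (25%), a smaller share than the 31.7% of all genes. The median log2FC was 0.63, with 61 of 72 genes (84.7%) above 0, while the median of all genes tested was 0.01 with 50.5% above 0. The 84 h libraries lay wholly above the 24 h libraries in 21 of the 72 (29.2%) and wholly below in 1, against 17.5% of all genes above and 15.9% below. Left without 24 h replicates 1 and 2, the same comparison called 1 gene, mRpS10 (1.39%, where 3.07% of all genes were called higher). The median was then 0.26, with 51 genes (70.8%) above 0, against 0.13 and 55.7% for all genes. The 84 h libraries lay above 24 h replicate 3 alone in 28 genes (38.9%, against 35.8% of all) and below it in 11 (15.3%, against 32.8%). That comparison rests on a single 24 h library, whose spread was taken to be like that of the other ages. Leaving out 84 h replicate 3 gave 4 calls (5.56%, against 4.66% of all genes) and leaving out 84 h replicate 2 gave 5 (6.94%, against 4.83%), and the median was 0.38 without 24 h replicate 2. Beside these calls, the summed neuron markers, mostly elav, were also higher at 84 h (253 to 354 CPM) than at 24 h (205 to 252 CPM). Of the 4, 0 were called, with elav at a log2FC of 0.49 (adjusted p = 0.0585 in edgeR's test). The highest mean was at 50 h for 3 of the 4, and from 50 to 84 h 1 was called lower (median log2FC -2.04). From 24 to 84 h, 3 were above 0 and the lowest stood at -0.48. The muscle gene Mhc was called higher, at 2.156 ± 2.26 CPM at 84 h, while the summed muscle markers overlapped between these ages. The part of these markers in the result was not tested.

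The 2 libraries that stood apart were also where single genes were lowest. Of the 72 genes, 30 had their lowest level of all 12 libraries in 24 h replicate 2 (41.7%, against 16.9% of all genes tested) and 18 in 24 h replicate 1 (25.0%, against 12.1%). In 24 h replicate 3 it was 3 genes (4.17%, against 8.08%). The highest level fell in 50 h replicate 3 for 17 genes (23.6%, against 8.66% of all) and in 84 h replicate 3 for 12 (16.7%, against 8.31%). By mean level, 6 genes peaked at 24 h (8.33%, against 31.1% of all), and 7, 27 and 32 genes at 36, 50 and 84 h. The share at 84 h was 44.4%, against 26.3% of all genes. The lowest mean was at 24 h for 43 (59.7%, against 31.9% of all genes), or for 31 (43.1%, against 36.4%) if 24 h replicate 3 alone stands for that age. The means rose at every step for 15 genes (20.8%, against 9.51% of all) and fell at every step for 1, against 757 of all 7978 genes.

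**Figure D3:**
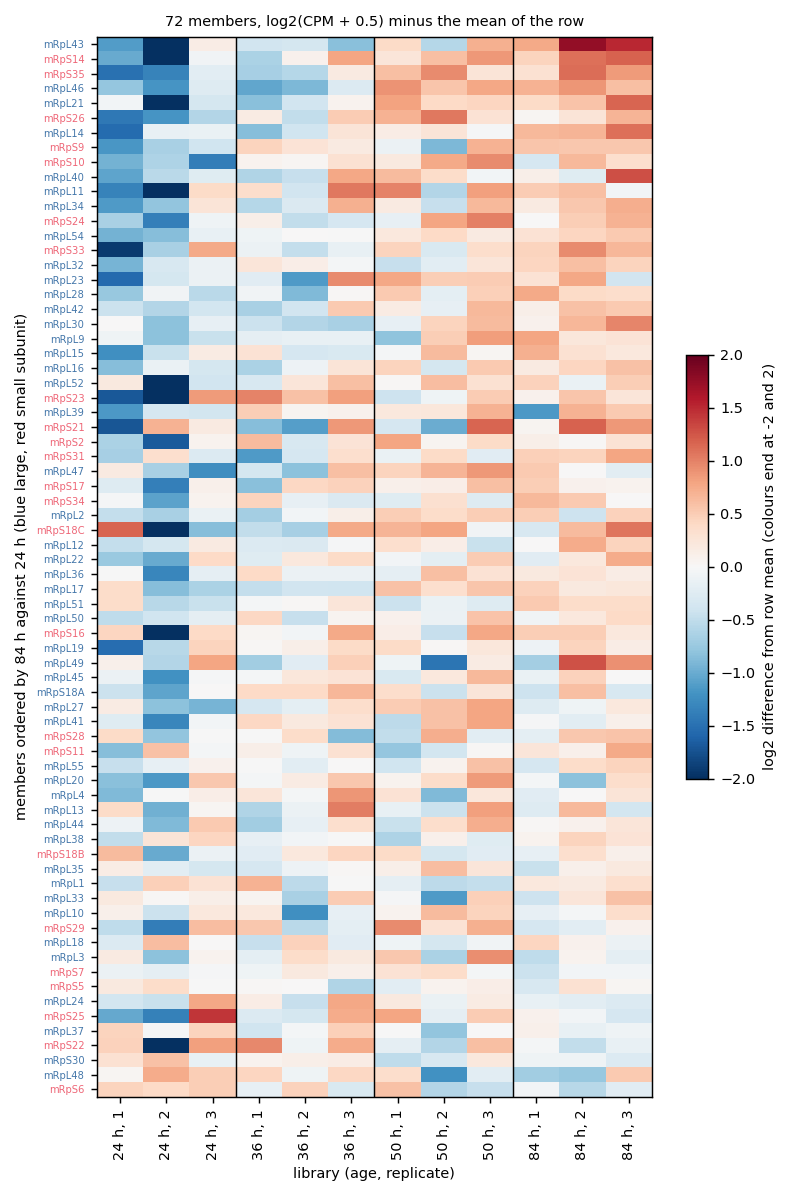
Level of 72 mitoribosomal genes in each library as log2(CPM + 0.5) minus the mean of the gene, ordered by the change from 24 to 84 h; vertical lines part the ages, and symbols are blue for the large and red for the small subunit. The darkest blue lies mostly in the 24 h replicate 1 and 2 columns. In many of the upper rows 24 h replicate 3 is paler than both, but not in those of mRpS10 and mRpL21.

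Among large subunit proteins found only in mitochondria, mRpL46 (FBgn0035272), a protein of the central protuberance of the mammalian mitoribosome, changed in a single step. Its 24 h libraries had 8.067, 5.989 and 11.73 CPM, its 36 h libraries 6.674, 7.393 and 11.63 CPM, its 50 h libraries 26.94, 21.19 and 24.72 CPM and its 84 h libraries 23.23, 26.60 and 21.88 CPM. The 6 younger libraries all lay below the 6 older ones. From 36 to 50 h it rose 2.83-fold (log2FC 1.50 ± 0.37, adjusted p = 0.0194), and from 24 to 84 h 2.79-fold (1.48 ± 0.37, adjusted p = 0.00616, both in edgeR's test). The later comparison kept its call with any 1 library left out and lost it without 24 h replicates 1 and 2 (1.02, adjusted p = 0.22, range over alternatives 0.000399 to 0.22). The step from 36 to 50 h lost its call when either of 36 h replicates 1 and 2 (adjusted p 0.101 and 0.111) or of 50 h replicates 1 and 3 (0.0851 and 0.0676) was left out, with a log2FC of 1.34 to 1.48 in those cases and a range of adjusted p over alternatives of 0.00145 to 0.111.

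The gene mRpL43 (FBgn0034893), whose mammalian protein has a thioredoxin-like fold, showed the largest change of the 72 from 24 to 84 h in the main fit. It had 2.988, 1.382 and 7.893 CPM at 24 h, 5.339, 5.436 and 3.745 CPM at 36 h, 9.357, 4.616 and 11.87 CPM at 50 h and 12.39, 25.24 and 21.01 CPM at 84 h. All 84 h libraries lay above all others, and the 24 h libraries differed widely from each other. It rose 4.86-fold from 24 to 84 h (log2FC 2.28 ± 0.57, adjusted p = 0.00643 in edgeR's test), with a log2FC of 3.16 without 24 h replicate 3 and an uncalled 1.30 without the other 24 h libraries (adjusted p = 0.246, range over alternatives 0.000611 to 0.246). Its span overlaps that of sigmar, so reads of the pair may not be told apart.

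Another gene of this class, mRpL54 (FBgn0034579), had 7.32, 7.832 and 13.01 CPM at 24 h and 17.89, 19.68 and 21.19 CPM at 84 h, with no overlap. In between it held 13.57 to 14.57 CPM at 36 h and 16.42 to 19.30 CPM at 50 h, so its mean rose at every step. It rose 2.1-fold from 24 to 84 h (log2FC 1.07 ± 0.36, adjusted p = 0.039 in edgeR's test). The call was lost without 24 h replicate 1 or 2, 50 h replicate 1 or 2, or any 84 h library (log2FC 0.91 to 1.13, adjusted p 0.0509 to 0.129), with sorted cells as a covariate (1.05, 0.0663) and without the filter on low counts (1.08, 0.0808). Without 24 h replicates 1 and 2 the log2FC was 0.59 (range of adjusted p over alternatives 0.00237 to 0.499).

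Of large subunit proteins with a bacterial counterpart, mRpL14 (FBgn0040389), which faces the small subunit in bacterial ribosomes, had 2.988, 8.6 and 8.746 CPM at 24 h and 15.31, 15.63 and 21.19 CPM at 84 h. Its 84 h libraries lay above the other 9, whose highest value was 11.63 CPM. It rose 2.57-fold from 24 to 84 h (log2FC 1.36 ± 0.47, adjusted p = 0.0439 in edgeR's test). This call, the nearest to the threshold, was lost without 24 h replicate 1, 36 h replicate 2, or any 50 or 84 h library (log2FC 0.99 to 1.44, adjusted p 0.0513 to 0.171), with sorted cells as a covariate (1.23, 0.099) and without the filter on low counts (1.37, 0.0505). Without 24 h replicates 1 and 2 the log2FC was 0.99 (adjusted p = 0.348, range over alternatives 0.0126 to 0.348).

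The gene mRpL28 (FBgn0031660), also with a bacterial counterpart, had 16.88, 27.64 and 19.84 CPM at 24 h and 49.03, 38.02 and 36.82 CPM at 84 h. These groups did not overlap, and the ages between them spread from 15.44 to 41.78 CPM. It rose 1.92-fold from 24 to 84 h (log2FC 0.94 ± 0.31, adjusted p = 0.0334 in edgeR's test), the smallest of the 10 called changes. The call was lost without 24 h replicate 1 or 3 or any 84 h library (log2FC 0.78 to 1.02, adjusted p 0.0588 to 0.114), with sorted cells as a covariate (0.92, 0.0603) and without 24 h replicates 1 and 2 together (1.06, range over alternatives 0.0119 to 0.14). It overlaps Gmd in the current annotation.

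Of the small subunit, mRpS35 (FBgn0035374), found only in mitochondria, had the smallest p. The 24 h libraries held 6.424, 7.218 and 16.21 CPM, the 36 h libraries 11.79, 12.61 and 21.49 CPM, the 50 h libraries 28.88, 36.72 and 22.74 CPM and the 84 h libraries 23.40, 41.32 and 34.39 CPM. Every 50 and 84 h library lay above every 24 and 36 h library. It rose 3.35-fold from 24 to 84 h (log2FC 1.75 ± 0.39, adjusted p = 0.00251 in edgeR's test) and kept that call with any 1 library left out, but not without 24 h replicates 1 and 2 (1.02, adjusted p = 0.195, range over alternatives 5.93e-05 to 0.195).

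The gene mRpS26 (FBgn0036774), of the same class, had 5.976, 7.218 and 11.09 CPM at 24 h, 19.13, 11.96 and 24.44 CPM at 36 h, 27.91, 35.67 and 20.96 CPM at 50 h and 17.38, 20.29 and 27.44 CPM at 84 h. The 24 h libraries were the 3 lowest of the 12 and the highest mean was at 50 h. It rose 2.7-fold from 24 to 84 h (log2FC 1.43 ± 0.37, adjusted p = 0.00915 in edgeR's test). The call was lost without 84 h replicate 3 (1.23, adjusted p = 0.0621) and without 24 h replicates 1 and 2 (0.96, adjusted p = 0.262, range over alternatives 0.00176 to 0.262).

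Among small subunit proteins with a bacterial counterpart, mRpS10 (FBgn0038307), a protein of the head of the small subunit in bacteria, had 8.217, 10.44 and 5.973 CPM at 24 h, 17.13, 16.74 and 20.30 CPM at 36 h, 18.71, 27.91 and 32.04 CPM at 50 h and 12.90, 25.85 and 20.84 CPM at 84 h. The 24 h libraries were again the 3 lowest, and replicate 3 was the lowest of them, as in no other of the 10 genes. It rose 2.41-fold from 24 to 84 h (log2FC 1.27 ± 0.37, adjusted p = 0.0174 in edgeR's test), and without 24 h replicates 1 and 2 it was the 1 gene still called (1.73, adjusted p = 0.0447). The call was lost without 24 h replicate 3 (adjusted p = 0.056) and without either of 84 h replicates 2 and 3 (0.117 and 0.0598), with a log2FC of 1.03 to 1.24 in those cases and a range over alternatives of 0.00458 to 0.117.

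The gene mRpS9 (FBgn0037529), whose bacterial counterpart reaches to the tRNA in the peptidyl site, had 8.665, 12.59 and 15.15 CPM at 24 h, 27.36, 24.35 and 22.67 CPM at 36 h, 18.39, 10.49 and 32.63 CPM at 50 h and 29.76, 29.45 and 29.18 CPM at 84 h. The 84 h libraries were nearly equal and lay above those of 24 h, while 1 library at 50 h was as low as those of 24 h. It rose 2.44-fold from 24 to 84 h (log2FC 1.28 ± 0.36, adjusted p = 0.0152 in edgeR's test). The call was lost without 24 h replicate 1 (1.08, adjusted p = 0.0651) and without 24 h replicates 1 and 2 together (0.96, adjusted p = 0.26, range over alternatives 0.0044 to 0.26). It overlaps ArgRS-m and wtrw in the current annotation.

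The gene mRpS14 (FBgn0044030), again of the head of the small subunit, had 4.332, 0.3071 and 8.746 CPM at 24 h, 5.784, 9.784 and 16.36 CPM at 36 h, 10.97, 14.27 and 17.21 CPM at 50 h and 12.73, 20.44 and 21.54 CPM at 84 h. Its 24 h replicate 2 value is under the level of 3 counts in that library, and its 84 h libraries lay above those of 24 h. It rose 4.16-fold from 24 to 84 h (log2FC 2.06 ± 0.63, adjusted p = 0.0263 in edgeR's test), with a log2FC of 2.97 without 24 h replicate 3 and an uncalled 1.06 without the other 24 h libraries. The call was lost on log2(TPM + 0.1) (adjusted p = 0.0672), without 24 h replicate 1 (0.063) and without either of 84 h replicates 2 and 3 (0.0777 and 0.0847), with a log2FC of 1.92 to 2.05 without those libraries and a range over alternatives of 0.000703 to 0.315. It overlaps CG32533 and Naa15-16 in the current annotation.

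**Figure D4:**
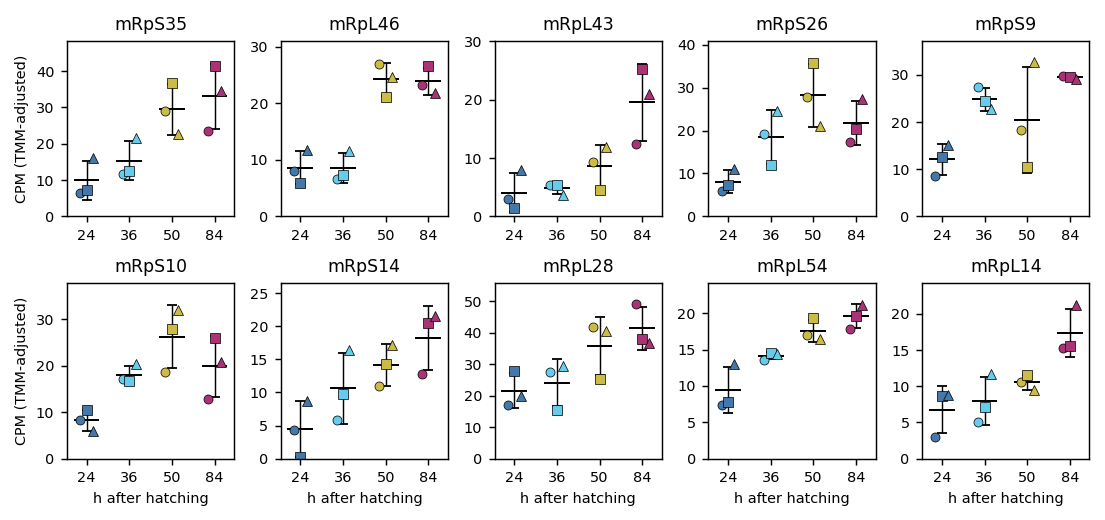
TMM-adjusted CPM by library, against hours after larval hatching, for the 10 mitoribosomal genes called higher at 84 h than at 24 h, in order of adjusted p; circles, squares and triangles are replicates 1, 2 and 3, and bars show the mean ± SD of 3 libraries. In all 10 the 84 h libraries lie above the 24 h libraries, while 7 peak at 84 h and 3 (mRpL46, mRpS26 and mRpS10) at 50 h.

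The 10 genes were 5 of 48 large subunit genes tested (10.4%) and 5 of 24 small subunit genes (20.8%), where 8.16% of all genes were called higher. The median log2FC was 0.58 and 0.70. By class they were 5 of 43 with a bacterial counterpart (11.6%) and 5 of 29 counted as found only in mitochondria (17.2%). The medians were 0.64 and 0.57. The 29 include mRpS18A and mRpS18B, which are related to bacterial S18 but were put in that class. No difference between these classes was tested. Of the 10, 6 overlap no other gene in the current annotation.

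No mitoribosomal gene fell by the test. The largest declines from 24 to 84 h were in mRpS6 (FBgn0035534), the counterpart of a bacterial protein that pairs with S18, in mRpL48, of the large subunit, and in mRpS30. The mRpS6 libraries had 21.51, 20.89 and 22.40 CPM at 24 h and 15.14, 10.52 and 13.37 CPM at 84 h, which did not overlap (log2FC -0.73 ± 0.38, adjusted p = 0.191 in edgeR's test). It was the 1 gene of the 72 whose 84 h libraries all lay below those of 24 h. The gene mRpL48 had 7.171, 11.98 and 10.03 CPM at 24 h and 4.129, 3.907 and 10.25 CPM at 84 h, with overlap (-0.67 ± 0.54, adjusted p = 0.421), and -1.27 without 84 h replicate 3. For mRpS30 the values were 81.72, 99.36 and 59.52 CPM at 24 h and 62.11, 62.66 and 54.53 CPM at 84 h, also with overlap (-0.43 ± 0.22, adjusted p = 0.191). The log2FC without 24 h replicates 1 and 2 was -0.78 for mRpS6, -0.72 for mRpL48 and 0.01 for mRpS30. With library sizes taken from ERCC counts, which lift the median of all genes by 1.48, all 3 were above 0, mRpS6 at 0.63, mRpL48 at 0.78 and mRpS30 at 1.15.

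None of the genes at the ends of the level order passed between 24 and 84 h in the main fit. For mRpL55 the log2FC was 0.37 ± 0.32 (adjusted p = 0.451), for mRpL35 0.11 ± 0.27 (adjusted p = 0.826) and for mRpS17 0.70 ± 0.62 (adjusted p = 0.475, all in edgeR's test). When 24 h replicates 1 and 2 were left out these were 0.11, 0.33 and 0.15, and mRpL9, next, had 0.91. The gene mRpL9, with 26.44, 15.82 and 20.69 CPM at 24 h and 49.38, 33.06 and 34.04 CPM at 84 h, did not overlap between these ages and came nearest to the threshold (0.89 ± 0.34, adjusted p = 0.0712), passing with the sorted cells as a covariate (0.0492), without 50 h replicate 1 (0.0346) and without the filter on low counts (0.0386, range over alternatives 0.0178 to 0.268). The gene mRpS23 had 0.8964 and 0.3071 CPM in 24 h replicates 1 and 2 but 7.68 CPM in replicate 3, and 4.301, 6.161 and 4.863 CPM at 84 h. Its log2FC was 0.83 ± 0.79 with all libraries, a called 3.05 without 24 h replicate 3 (adjusted p = 0.0111) and -0.59 without the other 24 h libraries (range over alternatives 0.0111 to 0.836). For mRpS18C, the log2FC was 2.78 without 24 h replicate 1. With library sizes from ERCC counts, where 29.4% of all genes were called higher, mRpL55 was called (1.88, adjusted p = 0.0403 in edgeR's test). So were mRpL35 (1.71, 0.0495), mRpS18A (1.99, 0.0309) and mRpL9 (2.25, 0.0178), while mRpS17, mRpS18C and mRpS23 were not.

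Step by step, few genes passed. From 24 to 36 h edgeR's test called 0 of 72, where 0.902% of all genes were called in either direction. Of the 72, 6 (8.33%) had an unadjusted p under 0.05, against 14.7% of all genes (DESeq2 called 0 of the 72). The median log2FC was 0.29 with 52 genes above 0, against a median of -0.01 for all genes. Leaving out 24 h replicate 2 gave a median of 0.16, leaving out 36 h replicate 3 gave 0.08, and without 24 h replicates 1 and 2 it was 0.02, where all genes had 0.05. With sorted cells as a covariate the median was 0.10, with 41 genes above 0, against -0.02 for all genes. Without 24 h replicate 3, mRpS23 was called (3.58, adjusted p = 0.0296). From 36 to 50 h, 1 gene rose, mRpL46, and 0 fell, where 1.88% of all genes were called higher and 2.37% lower. The median was 0.20, with 49 genes above 0, against 0.03 for all genes. At an unadjusted p under 0.05 there were 4 (5.56%, against 17.4% of all genes). Leaving out 1 library moved this median between 0.10 and 0.32. From 50 to 84 h edgeR's test called 0, where 3.06% of all genes were called in either direction. At an unadjusted p under 0.05 there were 2 (2.78%, against 12.7% of all genes; DESeq2 called 0 of the 72), and the median was 0.05 with 40 genes above 0, against -0.01 for all genes. It was -0.03 without 50 h replicate 2. These comparisons share libraries with each other and with that of 84 and 24 h.

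The test for any difference between ages called 5 of 72 (6.94%, against 19.5% of all genes tested, with 14, or 19.4%, at an unadjusted p under 0.05 against 32% of all). They were mRpL46, mRpS35, mRpS26, mRpL43 and mRpS10, all among the 10 named above. Without 24 h replicate 1 the count was 8, with no share of all genes given for that fit.

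The size of the change from 24 to 84 h depended on how libraries were scaled. With library sizes from ERCC counts, 39 of the 72 genes were called higher at 84 h than at 24 h (54.2%), where 29.4% of all genes were, and the median was 2.03 against 1.48 for all genes. Relative to the median of all genes this is 0.55, close to the 0.62 under TMM. The highest ERCC shares were those of the 24 h libraries that stood apart. On the deposited TPM, limma called 21 genes higher on log2(TPM + 1) (29.6%) and 19 on log2(TPM + 0.1) (26.8%), where 10.3% of all genes were called higher on each scale, with medians of 0.93 and 0.96 against 0.29 and 0.37 for all genes, or 0.64 and 0.59 relative to them.

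The 2 mitoribosomal genes with other symbols did not pass with all libraries. The small subunit gene tko went from 10.5 ± 6.27 CPM at 24 h to 11.76 ± 3.79 CPM at 84 h (adjusted p = 0.815), and bonsai, the fly S15 gene, from 35.8 ± 12.9 to 58.4 ± 10.5 CPM (0.70 ± 0.26, adjusted p = 0.0583 in edgeR's test). With 24 h replicates 1 and 2 left out, bonsai was called (1.46, adjusted p = 0.00555) and tko was not (-0.59, adjusted p = 0.504).

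Of the factors that work with the mitoribosome, 22 genes for translation factors and aminoacyl-tRNA synthetases were tested. From 24 to 84 h, 4 rose (18.2%, against 8.16% of all genes) and 0 fell (10.7% of all genes), with a median of 0.10. The elongation factor gene mEFTs, which recharges the factor that brings tRNA to the ribosome, rose 3.73-fold, from 22.74 ± 2.60 to 84.97 ± 9.74 CPM (log2FC 1.90 ± 0.21, adjusted p = 8.05e-07 in edgeR's test). Its size was the same without 24 h replicates 1 and 2 (1.92, adjusted p = 0.000123). The recycling factor gene mRRF1 rose 5.19-fold from 1.011 ± 0.0785 CPM (adjusted p = 0.0187), the synthetase gene CysRS-m 3.24-fold (adjusted p = 0.0227) and MetRS-m 2.65-fold (adjusted p = 0.0382). Without 24 h replicates 1 and 2 these 3 were not called, at a log2FC of 2.30, 1.36 and 1.90 against 2.38, 1.7 and 1.40 with all libraries (adjusted p 0.184, 0.27 and 0.0922), and AlaRS-m was lower (-1.96, adjusted p = 0.0128). With ERCC totals 10 of the 22 were higher (45.5%, against 29.4% of all genes) and 0 lower.

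In the neighbouring steps of mitochondrial biogenesis, calls under TMM scaling went in both directions. Of all genes tested, 8.16% were called higher and 10.7% lower, and 29.4% higher with ERCC totals. Of 12 genes for mitochondrial DNA upkeep and transcription, 1 rose and 0 fell, namely mtSSB, the single-stranded DNA-binding protein, 1.71-fold to 86.43 ± 9.60 CPM (adjusted p = 0.00971 in edgeR's test), and 0.44 without 24 h replicates 1 and 2 (adjusted p = 0.369). Of 14 import genes, 3 rose (21.4%) and 1 fell. The inner membrane receptor gene ttm50 rose 2.77-fold (adjusted p = 0.00358), Tom7 2.11-fold (adjusted p = 0.0187) and Tim9a 2.28-fold (adjusted p = 0.0324), while Tom40, the channel of the outer membrane, fell 2.74-fold, from 305.7 ± 62.8 to 111.8 ± 11.7 CPM (adjusted p = 3.45e-06). Without 24 h replicates 1 and 2, ttm50 (1.51, adjusted p = 0.0388) and Tom40 (-1.29, adjusted p = 0.000182) were called, while Tom7 (0.86, adjusted p = 0.232) and Tim9a (0.79, adjusted p = 0.388) were not. With ERCC totals 8 of the 14 were higher (57.1%) and 0 lower, at a median of 1.67 against 1.48 for all genes. Among 5 regulators of mitochondrial biogenesis, Myc, a growth regulator listed as dm, fell 1.82-fold, from 1781 ± 82.9 to 980.1 ± 39.0 CPM (adjusted p = 0.000332), and -0.79 without 24 h replicates 1 and 2 (adjusted p = 0.0201), and 0 rose. With ERCC totals 2 of the 5 were higher and 0 lower.

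Cytosolic ribosomal protein genes were mostly below 0 under TMM scaling and above 0 with ERCC totals. Of 82 tested, 0 rose and 13 fell from 24 to 84 h (15.9%, against 10.7% of all genes), with a median of -0.20. There were 18 above 0, where 61 of the 72 mitoribosomal genes were above 0. With ERCC totals 14 of the 82 were higher (17.1%, against 29.4% of all genes) and 0 lower. Their median was then 1.28, below the 1.48 of all genes and the 2.03 of the mitoribosomal genes. Under TMM, RpS7 fell 1.76-fold (adjusted p = 0.000374) and RpL23A 1.72-fold (adjusted p = 0.000535, both in edgeR's test). Left without 24 h replicates 1 and 2, RpS7 was at -0.89 and RpL23A at -0.88. The list's median was then -0.44, beside 0.26 for the mitoribosomal genes and 0.13 for all genes. Of 28 nuclear-encoded respiratory chain genes, 5 were higher (17.9%, against 8.16% of all genes) and 0 lower. Among the 5 were the complex I gene ND-23 (2.18-fold, adjusted p = 0.00954) and the complex II gene SdhC (2.25-fold, adjusted p = 0.0276, both in edgeR's test). The 28 genes had a median of 0.36. Without 24 h replicates 1 and 2 their median was 0.21, against 0.13 for all genes, with ND-23 at 1.47 and SdhC at 0.65. With ERCC totals 21 of the 28 were higher (75%, against 29.4% of all genes) and 0 lower, at a median of 1.79. The lists were not tested against each other.

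**Figure D5:**
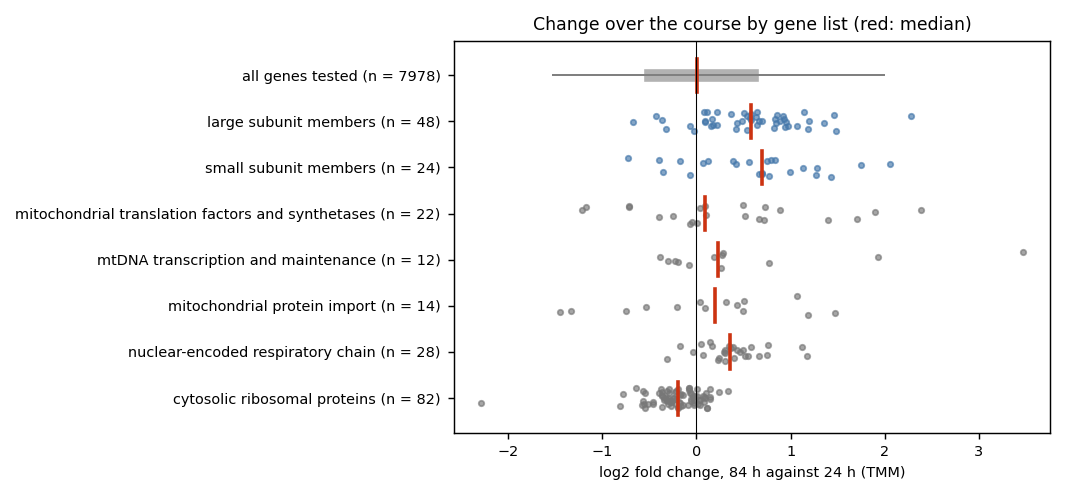
Log2 fold change from 24 to 84 h, TMM-scaled, for each tested gene of the large and small mitoribosomal subunits (blue) and of related lists (grey), with medians in red; for all 7978 genes the thick line spans the quartiles and the thin line percentiles 5 to 95. Medians stand at 0.58 and 0.70 for the subunits, 0.36 for the respiratory chain and -0.20 for cytosolic ribosomal proteins, whose median was 1.28 with ERCC totals.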

How the data were processed

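The authors deposited a table of counts per gene, unscaled as its values show, with ERCC RNAs as separate rows, and a table of TPM. Per the labels, RNA was drawn from pooled sorted cells and amplified before library construction. Per the submitters' processing notes, HTSeq 0.6.1p1, STAR 2.4.0i, Bowtie2 2.1.0, cutadapt 1.7.1 and CASAVA were used, and BDGP5, dm3 and mm10 are the builds listed. Their roles, the strand setting and the TPM calculation were not given in the sources. The annotation at hand is of a later build, so it served for names and overlaps between genes, and no coordinates are given.

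From the counts, edgeR 4.0.16 in R 4.3.3 (TMM, filterByExpr by age, robust quasi-likelihood) was fitted to all 12 libraries and all genes, with 8 residual degrees of freedom, for 4 contrasts between ages and for any difference, and was checked on simulated data. The filter kept 7978 genes and 72 of the 73 mitoribosomal genes. P-values are two-sided and adjusted over all genes tested within a contrast, threshold 0.05. The SE of a log2 fold change is its size over the square root of F. CPM use TMM-adjusted library sizes, and counts of ERCC RNAs are kept apart. Intervals and floors cover counting error only, as the libraries carry no molecular identifiers. Alternatives were RLE factors, DESeq2 1.42.0, no filter, ERCC totals, limma 3.58.1 on the deposited TPM, the replicate number as a block, sorted cell number as covariate, each library left out, and, chosen after seeing the data, both 24 h replicates 1 and 2 left out.

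The genes and lists were chosen with earlier results of these data known. Genes named singly are those called in any contrast, the 4 highest and 4 lowest by TPM, the S18 paralogs, the 3 largest rises and the 3 largest falls, and from the related lists only called genes, at most 8 per list. List genes were matched by symbol or synonym, and ArgRS-m, PheRS-m, Tim14 and Tim44 were left unmatched. Outside this rule, AlaRS-m, Mhc and elav were named after their values were seen, and tko and bonsai because they are mitoribosomal. Sequences were not used here.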

Additional observations from a re-analysis of the deposited data

How the results depend on the processing

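From 24 to 84 h, 10 mitoribosomal genes were called higher, with a range of 4 to 13 over single left-out libraries and a median log2 fold change from 0.38 to 0.88 around 0.63. ERCC totals gave 39 calls and a median of 2.03, log2(TPM + 1) gave 21 and 0.93, log2(TPM + 0.1) gave 19 and 0.96, and leaving out both 24 h replicates 1 and 2 gave 1 and 0.26. For any difference between ages, 5 genes were called (6.94%, against 19.5% of all genes tested). The count was 9 with DESeq2, 8 without the filter and 32 with ERCC totals. It was 15 and 12 on TPM with pseudocounts of 1 and 0.1, and 4 to 8 with 1 library left out. No share of all genes is given for these alternatives, so their counts do not set the mitoribosomal genes apart from other genes. From 36 to 50 h the 1 call was 2 on log2(TPM + 1) and 0 to 1 with a library left out, and the median of 0.20 became 1.2 with ERCC totals. From 24 to 36 h there were 0 to 1 calls higher with a library left out. The median of 0.29 became 1.12 with ERCC totals, 0.10 with sorted cells as a covariate and 0.02 without 24 h replicates 1 and 2. From 50 to 84 h the median of 0.05 turned to -0.35 with ERCC totals, and leaving out 1 library moved it between -0.03 and 0.13. Single genes turned sign from 24 to 84 h in 9 cases, none of them called: mRpL35 without 84 h replicate 3 (-0.01, single left-out libraries -0.01 to 0.28), mRpL48 (0.78), mRpS30 (1.15) and mRpS6 (0.63) with ERCC totals, mRpS18B with sorted cells (-0.04) and without 24 h replicate 2 (-0.21) or 84 h replicate 2 (-0.01, single left-out libraries -0.21 to 0.62), and mRpS23 (-0.59) and mRpS30 (0.01) without 24 h replicates 1 and 2. Of the other values of named genes under alternatives, 396 kept direction and side of the threshold, 47 lost a call and 10 gained one. The cause of these changes was not tested. With the replicate number as a block, 11 genes were called higher from 24 to 84 h (15.3%, against 8.89% of all genes). For any difference it was 7, again with no share of all genes given. Whether the numbers pair libraries across ages is not stated. Same-numbered libraries of different ages correlated at -0.09 to 0.16, and differently numbered ones at -0.13 to 0.14. Of the 12 libraries, 7 matched their own number best. Correlations this weak cannot settle whether the libraries are paired. Counts limit the low end, where the lowest median count of a tested gene was 14.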
